A study of Mus musculus with 6 samples.

Results

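The 9 genes described here, S100b, Cdh19, Nrcam, Ncam1, Chl1, Fabp7, Nefl, Lgr6 and Metrn, are glial and neural genes that were read in YUMM2.1 mouse melanoma cells. They were taken by symbol from the 31053 genes of the gene expression tables. YUMM2.1 material was labelled in 3 groups (Empty vector, Bmal1 WT, Bmal1 bHLH), and every group had 3 replicates, marked with hashtag antibodies and pooled, as well as a gene expression and an antibody sample. Empty vector is the control, Bmal1 WT carries the wild-type form of the circadian transcription factor Bmal1, and the 3 tables of Bmal1 bHLH repeated the 3 of Bmal1 WT value for value, so that group was not analysed here. The replicates were h1, h7 and h8 for Empty vector and h3, h5 and h9 for Bmal1 WT, and the labels gave no treatment, time, clone or age, nor a culture or tissue of origin. The genes were chosen with their levels in these cells already known, so their restriction to melanoma-like cells and their levels in barcodes poor in mitochondrial RNA are given as descriptions with no test.

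Melanocytes and Schwann cells both arise from the neural crest, and melanoma cells can keep or regain transcripts of the glial branch of that lineage. S100b, a calcium-binding protein, and Cdh19, a cadherin of Schwann cell precursors, are used as markers of glia and of neural crest derived tumours. Ncam1, Nrcam and Chl1 are immunoglobulin-type adhesion molecules of growing axons and glia, Fabp7 is a fatty acid carrier of radial glia and immature Schwann cells, Nefl is the light neurofilament subunit of axons, Lgr6 is a receptor for R-spondins, and Metrn is a secreted factor that acts on glial differentiation and axon growth.

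The Empty vector library held 3978 cells after filtering, with a median of 5094 unique molecular identifiers (UMIs, each counting 1 captured transcript), and the Bmal1 WT library held 2386 cells with a median of 7570.5 UMIs. They shared 5 cell barcodes. Clusters rich in melanoma markers, here called melanoma-like, held 408 of the 6364 cells, 103 of Empty vector (2.59%) and 305 of Bmal1 WT (12.8%). Their median depth was 31015 and 43366 UMIs. Most other cells carried immune or fibroblast markers, although the labels name only the cell line. Levels are given as CPM, the UMIs of a gene divided by all gene UMIs of the summed cells and scaled to 1000000. The CPM of 1 gene may be compared between cells, but levels of different genes were not calibrated against each other. Intervals are 95% and cover counting error only.

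The label of the cells was checked against markers outside the 9 genes. Sox10, the transcription factor of the neural crest lineage, stood at 198 CPM in melanoma-like cells of Empty vector and 113 CPM in those of Bmal1 WT, and the neuregulin receptor Erbb3 at 92.6 and 62.3 CPM. Mcam and Gpm6b were also present, at 437 and 293, and 361 and 359 CPM. The pigment genes Mlana and Tyrp1 had 0 UMIs in both libraries, and Pmel, Tyr, Dct and Mia had between 0 and 6 UMIs per library. Of the genes of mature Schwann cells, Mag, Pmp2 and Cldn19 had 0 UMIs, whereas Egr2 was read at 50.4 and 36.8 CPM. The Y-linked genes Ddx3y, Uty, Kdm5d and Eif2s3y summed to 260 and 284 CPM in melanoma-like cells against 1.59 and 7.69 CPM in other cells. Xist, the RNA of the inactive X chromosome, showed the reverse, at 11.3 and 2.90 CPM against 1560 and 1415 CPM. The other cells here leave out the 339 barcodes of a mitochondria-poor cluster described below, led by Serpinb2 and Cavin2. Of those barcodes, 47.2% had a Y-linked UMI. A UMI of Ptprc, which encodes the leukocyte protein CD45, was found in 19 Empty vector (18.4%) and 24 Bmal1 WT (7.87%) melanoma-like cells, and its part in the values below was not tested. Arntl, the gene for Bmal1, stood at 61.1 and 60.2 CPM in melanoma-like cells of the groups. The sources used here do not say whether the introduced Bmal1 transcript carries the 3′ end that this assay reads, so this level does not check the labels.

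The 9 genes lie on 7 chromosomes of the mouse genome (GRCm38, GENCODE M21). S100b is at chr10:76253853-76261159 on the plus strand and overlaps Dip2a on the other strand. Dip2a had 870 UMIs in melanoma-like cells against 7383 for S100b. Cdh19 is at chr1:110888326-110977584 on the minus strand, and Lgr6 is on the same chromosome and strand at chr1:134983301-135105276. Nrcam is at chr12:44328885-44601964 on the plus strand, Ncam1 at chr9:49502136-49798925 on the minus strand and Chl1 at chr6:103510586-103750211 on the plus strand. Fabp7 is at chr10:57784881-57788450 and Nefl at chr14:68083863-68089095, both on the plus strand, and Metrn is at chr17:25793221-25797136 on the minus strand. Nefl overlaps Nefm on the opposite strand, but Nefm had 1 UMI in these cells. The sources used here do not say whether the counting used strand, so reads of S100b and Dip2a could not be separated beyond the authors' counts.

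RefSeq promoter windows (GRCm38.p6, from 250 bases before to 50 bases after a gene's start) were found for 6 of the 9 genes, S100b, Nrcam, Chl1, Fabp7, Lgr6 and Metrn. They were searched on both strands for CACGTG, the E-box that Bmal1 binds with Clock, which reads the same on both strands, and for ACAAAG or its reverse complement CTTTGT, the core letters of sites of Sox-family proteins. CACGTG was in 0 of the 6 windows, and 7.15% of the 32851 promoters held it. ACAAAG or CTTTGT was in 1 of the 6 windows, that of Chl1, and 18.7% of all promoters held it. The match lies before the RefSeq start but inside the GENCODE span given above for Chl1, which begins at chr6:103510586. The stretch around the match in the Chl1 window, chr6:103510719-103510748 on the plus strand, is shown because Chl1, which separated the melanoma-like clusters, held the only match, marked in capitals:
Chl1: gcaaagttttctCTTTGTccctcgcttttc
The 250 bases upstream of S100b (chr10:76253586-76253835) and of Nrcam (chr12:44328635-44328884), both on the plus strand, are shown because these genes lay on opposite sides between the clusters and by Sox10 UMI. Capitals mark CG dinucleotides:
S100b: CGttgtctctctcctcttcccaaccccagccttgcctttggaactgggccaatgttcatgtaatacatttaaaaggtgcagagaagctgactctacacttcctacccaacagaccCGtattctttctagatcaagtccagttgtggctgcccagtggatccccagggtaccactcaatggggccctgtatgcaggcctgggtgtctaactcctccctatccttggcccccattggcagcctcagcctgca
Nrcam: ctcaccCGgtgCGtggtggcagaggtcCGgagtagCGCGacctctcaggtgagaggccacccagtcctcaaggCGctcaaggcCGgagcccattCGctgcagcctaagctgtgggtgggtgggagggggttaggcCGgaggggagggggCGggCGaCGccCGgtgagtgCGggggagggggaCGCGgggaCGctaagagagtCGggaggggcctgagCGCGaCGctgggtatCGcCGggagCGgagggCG
The S100b stretch held 2 CG dinucleotides and the Nrcam stretch 25, against a median of 6 over all promoters. A match of letters is a description and not a binding site.

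The 9 genes were read mostly in melanoma-like cells. These cells held 31.9% of all gene UMIs in the kept cells of both libraries, but 96.8% of the UMIs of Lgr6, 96.0% of Cdh19, 95.1% of Nrcam, 92.4% of Chl1, 92.0% of Ncam1 and 85.4% of S100b. The share was lower for Nefl (73.2%), Metrn (65.5%) and Fabp7 (58.0%). For the last 3 genes, a mitochondria-poor cluster led by Serpinb2 and Cavin2, which stayed unnamed, held 21.5%, 13.2% and 25% of the UMIs, and a cluster with endothelial markers held 4.54%, 4.80% and 12.5%.

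**Figure D1:**
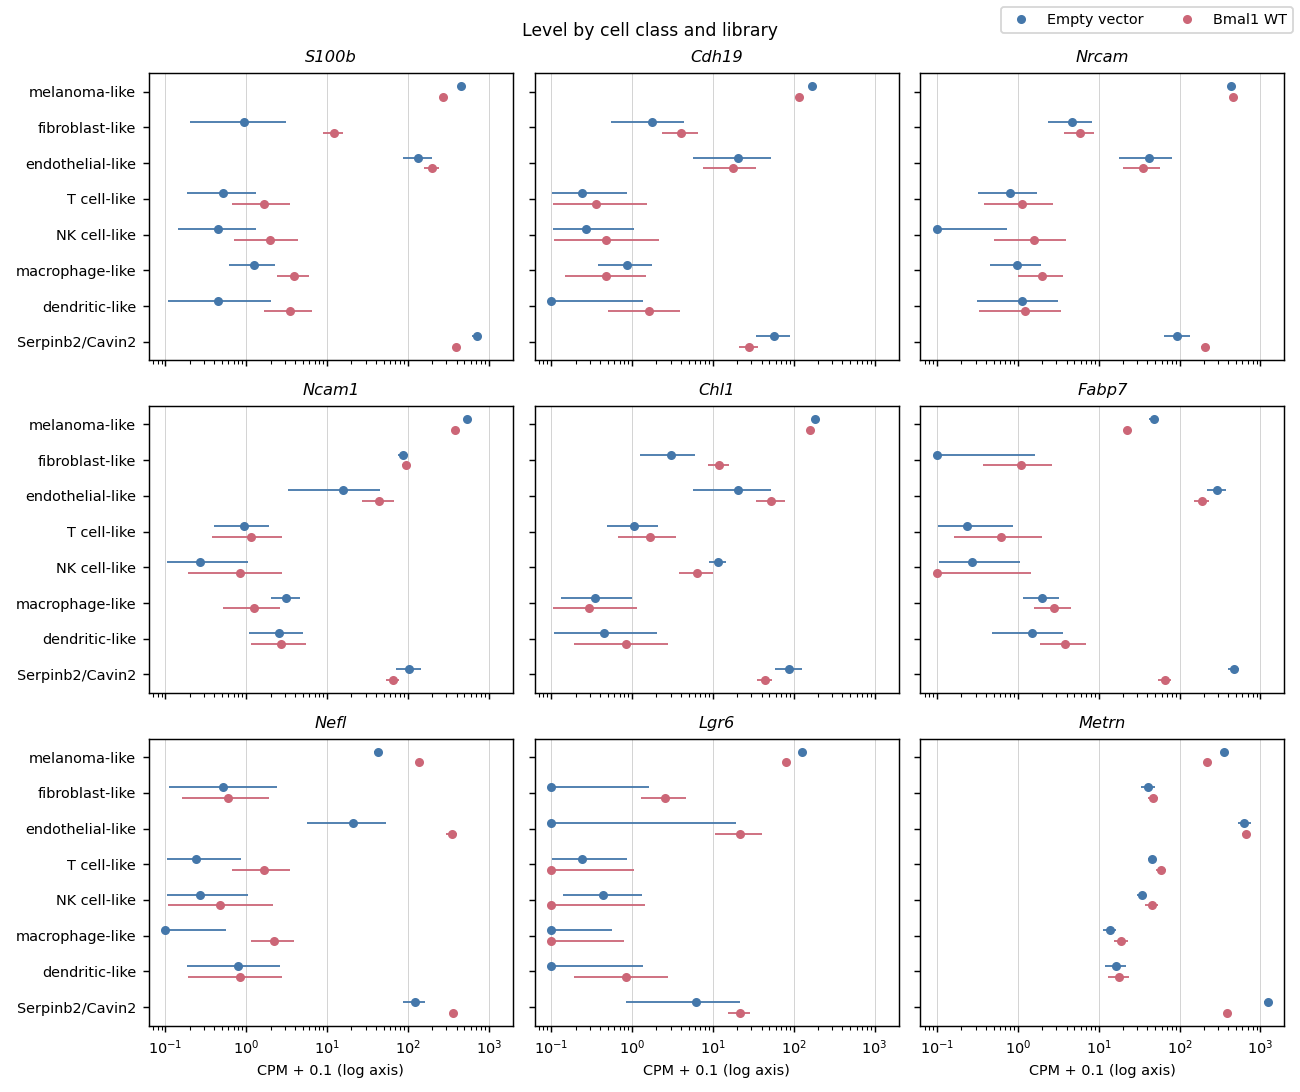
CPM of each gene (x axis, log scale, with 0.1 added) in 7 named cell classes and in the Serpinb2- and Cavin2-led cluster (y axis) for Empty vector (blue) and Bmal1 WT (red); points are summed UMIs of a class and bars are 95% Poisson intervals. Ncam1 stood at 533 and 378 CPM in melanoma-like cells and at 86.5 and 94.6 CPM in fibroblast-like cells, and Metrn at 13.6 to 58.9 CPM in the T cell-, NK cell-, macrophage- and dendritic-like classes.

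Among the adhesion genes, Ncam1 was read at 533 CPM (interval 514 to 552) in Empty vector and 378 CPM (369 to 388) in Bmal1 WT melanoma-like cells. Its next highest named class was fibroblast-like, at 86.5 and 94.6 CPM. In T cell-, NK cell-, macrophage- and dendritic-like cells Ncam1 stayed at or below 3.02 CPM. Nrcam stood at 434 and 459 CPM in melanoma-like cells, 10.5-fold and 13.1-fold its level in the next named class, the endothelial-like cluster. It had 0 UMIs in the Empty vector NK cell-like cells. Chl1 stood at 184 and 159 CPM in melanoma-like cells and at 20.7 and 52.4 CPM in the endothelial-like cluster, where it had 4 and 24 UMIs. Outside that cluster, it was read at 11.3 and 6.29 CPM in NK cell-like cells, where it had 66 and 17 UMIs. Cdh19 stood at 170 and 115 CPM, and outside the endothelial-like cluster its next named class was fibroblast-like, at 1.66 and 3.98 CPM.

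S100b was read at 450 and 276 CPM in melanoma-like cells. It was higher, at 716 and 399 CPM, in the unnamed Serpinb2- and Cavin2-led cluster. Its highest other named class was the endothelial-like cluster, at 134 and 199 CPM. Outside that cluster, its level in fibroblast-like cells was 0.832 CPM in Empty vector (2 UMIs) and 11.9 CPM in Bmal1 WT (48 UMIs). Lgr6, at 125 and 80.5 CPM in melanoma-like cells, had 16 UMIs over both libraries outside the melanoma-like cells, the endothelial-like cluster and the Serpinb2- and Cavin2-led cluster. Metrn was the least restricted. It stood at 354 and 221 CPM in melanoma-like cells and was also read in every immune class, at 45.4 and 58.9 CPM in T cell-like and 33.9 and 45.2 CPM in NK cell-like cells.

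Only named classes were ranked, so the unnamed Serpinb2- and Cavin2-led cluster was left out. S100b, Fabp7, Nefl and Metrn stood higher in it than in melanoma-like cells in both libraries. With both libraries summed, 6 of the 9 genes were highest in the melanoma-like class among those ranked. Fabp7, Nefl and Metrn were higher in the endothelial-like cluster, by log2 ratios of -2.93, -1.14 and -1.38 (melanoma-like over endothelial-like). That cluster held 109 cells with a median of 2650 UMIs, 89 of them with under 1% mitochondrial UMIs, and 4 of the 12 melanoma markers were raised in it as well as endothelial ones. A Y-linked UMI was found in 41.3% of its cells, against 90.7% of melanoma-like cells and 0.560% to 1.41% of the T cell-, NK cell-, macrophage-, dendritic- and fibroblast-like cells. Without mitochondria-poor barcodes the endothelial-like cluster fell under the minimum of 50 cells and was not compared, and 9 of 9 genes were then highest in melanoma-like cells, with log2 ratios of 3.49 for Fabp7, 7.13 for Nefl and 2.38 for Metrn. At a finer cluster resolution, 92 of the 109 cells were placed in a cluster named melanoma-like and led by Ube2c and Fabp7, and 17 remained in an endothelial-like cluster led by Kdr and Fabp4, too few to be compared. The same 9 of 9 were found at that resolution and under a stricter cell filter. In both settings a mitochondria-poor cluster led by Serpinb2 was also named melanoma-like. The part of each group of barcodes in the place of these 3 genes was not tested.

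To set cells of different depth side by side, each was thinned to 2000 UMIs. At that depth 88.1% of 387 melanoma-like cells had a UMI of at least 1 of the 9 genes, against 24.8% of fibroblast-like cells and 3.87% to 8.58% of the T cell-, NK cell-, macrophage- and dendritic-like cells. The share was 74.6% in the endothelial-like cluster and 90.0% in the Serpinb2- and Cavin2-led cluster. At 10000 UMIs, the median melanoma-like cell had 5 of the 9 genes, and 3 of 339 cells had 0. Ncam1 was detected in 89.4% of these 339 cells, Nrcam in 75.5%, S100b in 73.2%, Metrn in 69.9%, Cdh19 in 55.5%, Lgr6 in 41.6%, Chl1 in 33.6%, Nefl in 19.8% and Fabp7 in 12.4%. A few cells carried much of several genes, mainly in Empty vector. There, the 5 of 103 cells richest in a gene held 83.1% of its UMIs for Nefl and 57.6% for S100b. The share was 52.2% for Fabp7, 50.5% for Lgr6, 48.7% for Chl1 and 43.9% for Nrcam, and lowest for Metrn (27.5%). In Bmal1 WT, a single cell held 38.9% of the Fabp7 UMIs. For every other gene, the richest 5 of 305 cells held a smaller share than in Empty vector.

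The melanoma-like cells formed 2 clusters, 1 led by Col11a1 and Sema3d (52 Empty vector and 121 Bmal1 WT cells, median 24233 UMIs) and 1 led by Klk6 and Ptprn (51 and 184 cells, median 59400 UMIs). The 9 genes did not vary together between them. Chl1 and Fabp7 were read almost only in the Col11a1- and Sema3d-led cluster, Nefl was read mainly in the Klk6- and Ptprn-led cluster, and Lgr6 was about level. The clusters were drawn from the same cells, so these differences carry no test, although the 9 genes themselves were kept out of the genes used for clustering.

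**Figure D2:**
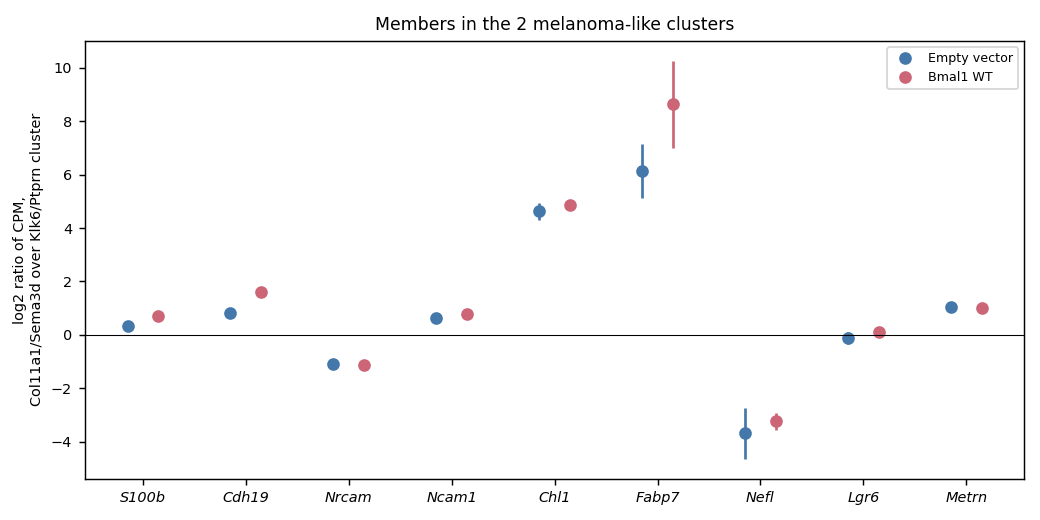
log2 ratio of CPM in the Col11a1- and Sema3d-led cluster over the Klk6- and Ptprn-led cluster (y axis) for each gene (x axis) in Empty vector (blue) and Bmal1 WT (red), with 95% counting intervals. Fabp7 lay at 6.13 and 8.63 and Chl1 at 4.63 and 4.85, Nefl at -3.68 and -3.24, and Lgr6 at -0.12 and 0.10.

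Chl1 stood at 568 CPM in the Col11a1- and Sema3d-led cluster and 20.5 CPM in the other, a log2 ratio of 4.79 (interval 4.63 to 4.95), and was higher in 5 of the 6 replicates, with no UMI in either cluster of h7. Fabp7 stood at 107 and 0.648 CPM, a log2 ratio of 7.37 (6.51 to 8.23), and was higher in 6 of 6 replicates. Nefl stood at 14.4 and 150 CPM, a log2 ratio of -3.38 (-3.69 to -3.07). It was lower in 5 of 6 replicates, the exception being h3, where it stood at 219 and 182 CPM. Cdh19 (log2 ratio 1.38), Metrn (1.06), Ncam1 (0.76) and S100b (0.63) were higher in the Col11a1- and Sema3d-led cluster, in 5, 5, 6 and 5 of the 6 replicates, while Nrcam was lower (-1.12), but in only 4 of 6. The Col11a1- and Sema3d-led cluster had a single cell in h7 and 2 cells in h9, so these 2 replicates weigh little.

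Cell by cell, at 10000 UMIs, the median was 6 of the 9 genes in the Col11a1- and Sema3d-led cluster (126 cells) and 4 in the Klk6- and Ptprn-led cluster (213 cells). Of the 42 cells with a Fabp7 UMI, 40 (95.2%) also had a Chl1 UMI, against 24.9% of the 297 cells without Fabp7. Nefl was found in 8 of 114 cells with Chl1 (7.02%) and in 59 of 225 cells without (26.2%). Within the Klk6- and Ptprn-led cluster Nefl was found in 4 of 14 cells with Chl1 (28.6%) and in 53 of 199 without (26.6%), and within the Col11a1- and Sema3d-led cluster in 4 of 100 (4.0%) and 6 of 26 (23.1%). Cdh19 was found more often in cells with S100b in both clusters, in 82.2% of the S100b-positive and 60.0% of the S100b-negative cells of the Col11a1- and Sema3d-led cluster, and in 46.3% and 33.3% of the other.

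Sox10 was detected in 178 of the 339 thinned melanoma-like cells. It was found in 100 of the 126 cells of the Col11a1- and Sema3d-led cluster and in 78 of the 213 of the other. Cells with a Sox10 UMI more often held Cdh19 (76.4% against 32.3%), Chl1 (53.9% against 11.2%), Metrn (82.6% against 55.9%) and S100b (80.9% against 64.6%). Ncam1, Fabp7, Nefl and Lgr6 were also found more often in them. The share of all genes with this direction was not computed. Nrcam was the exception, at 70.2% with and 81.4% without Sox10. Within the Klk6- and Ptprn-led cluster Nrcam was found in 93.6% of Sox10-positive and 82.2% of Sox10-negative cells, and within the Col11a1- and Sema3d-led cluster in 52.0% and 76.9%. Nefl had the same pattern, at 46.2% against 15.6% in the former cluster and 6.0% against 15.4% in the latter. So did Lgr6, at 60.3% against 30.4% in the former and 41.0% against 46.2% in the latter.

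The comparison of Bmal1 WT with Empty vector asked whether these genes differ with Bmal1 status within melanoma-like cells. No gene of the 9 passed the test. Ncam1 and Lgr6 were lower in each Bmal1 WT replicate than in each Empty vector replicate, Nefl had a higher fitted level in Bmal1 WT, and the other genes overlapped between the groups. UMIs were summed per hashtag replicate, which left 33, 4 and 21 melanoma-like cells in h1, h7 and h8, and 27, 78 and 24 in h3, h5 and h9. All 9 genes passed the minimum of 100 UMIs. edgeR's quasi-likelihood test called 0 of 8844 genes (0%) at a Benjamini-Hochberg adjusted p of 0.05, and 0 of the 9 genes. At an unadjusted p of 0.05 it called 331 genes (3.74%), 2 of the 9 among them. In h7, 1 UMI corresponded to 14.2 CPM, so its values are coarse. The 3 replicates of a library shared 1 droplet channel, so group and channel cannot be told apart, and the p-values measure only the spread between hashtag replicates, which may be technical.

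**Figure D3:**
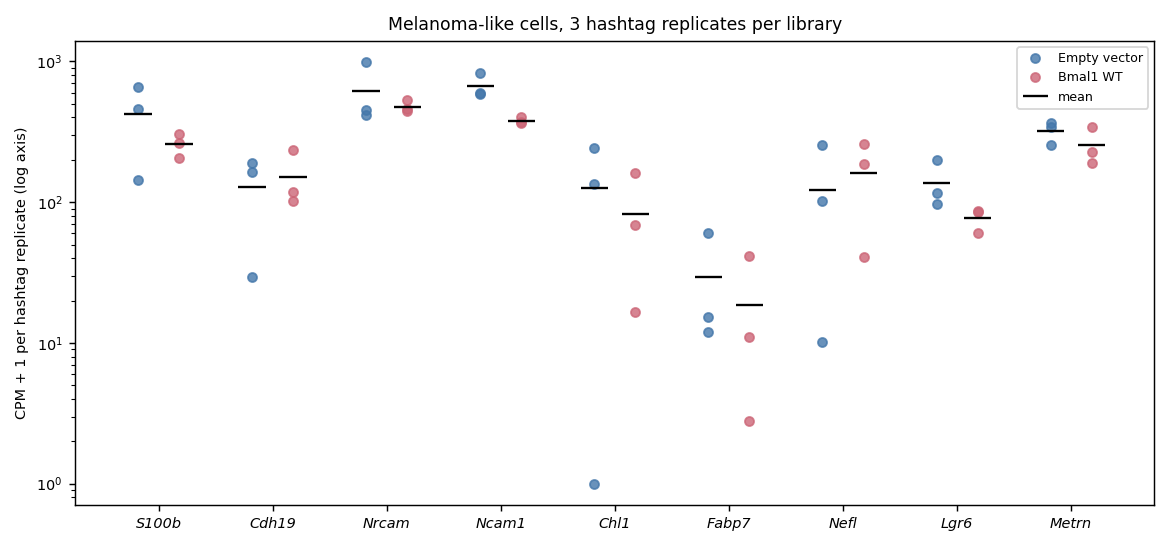
CPM of the 9 genes (x axis) in melanoma-like cells, with 1 added, on a log axis (y axis); each point is 1 hashtag replicate of Empty vector (blue) or Bmal1 WT (red) and the line is the mean of 3. The 3 Bmal1 WT points of Ncam1 sit between 364 and 399 CPM, below the Empty vector points at 586 to 822 CPM, while those of Nefl overlap.

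Ncam1 was read at 586, 822 and 600 CPM in h1, h7 and h8, and at 364, 372 and 399 CPM in h3, h5 and h9, means of 670 ± 133 and 378 ± 18.6 CPM (SD, n = 3 each). The groups did not overlap. The log2 fold change was -0.79 (SE 0.21), with an unadjusted p of 0.0041 and an adjusted p of 0.9999 in edgeR's quasi-likelihood test. Lgr6 was read at 115, 199 and 96.2 CPM in Empty vector and at 59.3, 83.8 and 85.0 CPM in Bmal1 WT, again without overlap. The log2 fold change of Lgr6 was -0.65 (SE 0.29), with an unadjusted p of 0.049 and an adjusted p of 0.9999 in the same edgeR test. Over all 8844 genes, 5.38% had every Bmal1 WT replicate below every Empty vector replicate, and 3.97% had every replicate above, so 2 of 9 and 0 of 9 stand beside those shares. Over 20 alternative settings Ncam1 stayed below 0 in 20, with log2 fold changes from -0.92 to -0.34, and Lgr6 in 20, from -0.87 to -0.36. With a marker gate, and in the Col11a1- and Sema3d-led cluster alone, neither gene was below in every replicate, and in the Klk6- and Ptprn-led cluster alone Ncam1 was and Lgr6 was not (log2 fold changes of -0.79 and -0.54).

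The other adhesion genes overlapped between the groups. Nrcam was read at 413, 993 and 453 CPM in Empty vector and at 457, 531 and 441 CPM in Bmal1 WT, a log2 fold change of -0.29 (SE 0.33). Its high value came from the 4 cells of h7, and without h7 the sign turned, to 0.14. Chl1 ranged from 0 CPM in h7, where 3 UMIs would be 42.5 CPM, to 242 CPM in h1 in Empty vector, and was 68.0, 160 and 15.6 CPM in Bmal1 WT. The fitted log2 change of Chl1 was -0.89 (SE 0.77), and in the Col11a1- and Sema3d-led cluster alone it was 0.15. Cdh19 was read at 164, 28.4 and 188 CPM and at 117, 101 and 235 CPM, a log2 fold change of 0.0042 (SE 0.45), whose sign was negative in 11 of 20 alternatives.

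Of the cytoplasmic glial genes, S100b was read at 661, 142 and 456 CPM in Empty vector and at 262, 305 and 206 CPM in Bmal1 WT. In Empty vector, h7 lay below the Bmal1 WT range and the other two above it, and the log2 fold change of -0.81 had an SE of 0.40. Fabp7 was read at 59.6, 14.2 and 10.96 CPM and at 10.0, 40.6 and 1.80 CPM, a log2 fold change of -0.80 (SE 0.89). Its sign rested on h1: without that replicate the log2 fold change was 0.74. Nefl was read at 9.20, 255 and 101 CPM in Empty vector and at 185, 257 and 39.5 CPM in Bmal1 WT, a log2 fold change of 1.01 (SE 0.98), and the range within each group was wider than the difference. Metrn was read at 367, 255 and 341 CPM and at 225, 189 and 341 CPM, a log2 fold change of -0.39 (SE 0.27).

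Negative log2 fold changes were found for 7 of the 9 genes and for 51.4% of all 8844 genes, and the median of the 9 was -0.65 against -0.01 over all genes, with quartiles of -0.24 and 0.20. The markers of the class that are not among the 9 had values of the same sign, -0.67 (SE 0.26) for Sox10 and -1.10 (SE 0.38) for Erbb3, with adjusted p of 0.9999 in the edgeR test. In the Col11a1- and Sema3d-led cluster alone they were -0.093 (SE 0.42) and 0.085 (SE 0.58). The share of the Col11a1- and Sema3d-led cluster in the summed UMIs also differed between replicates, at 40.8%, 1.46% and 25.8% for h1, h7 and h8, and at 8.22%, 28.3% and 2.52% for h3, h5 and h9, and its part in the differences was not tested.

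Many melanoma-like cells carried no hashtag, 39 of 103 in Empty vector and 165 of 305 in Bmal1 WT, and entered no replicate. Over all melanoma-like cells of a library, a comparison of 2 libraries without replicates, Nefl was higher in Bmal1 WT by a log2 ratio of 1.69 (counting interval 1.5 to 1.88) and stayed higher in cells with 1 hashtag (1.81) and with none (3.53). S100b turned with the hashtag: the log2 ratio was -0.99 (-1.07 to -0.91) in cells with 1 hashtag and 0.58 (0.40 to 0.76) in cells with none. Ncam1 was -0.67 (-0.74 to -0.59) in the former and -0.02 (-0.15 to 0.11) in the latter. Lgr6 was lower in both, by -0.43 and -0.92. The cells without a hashtag thus did not repeat the replicate values for S100b and Ncam1.

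Relatives and partners of the 9 genes were read in lists of 78 further genes, of which 44 reached the minimum of 100 UMIs, and 0 of the 44 passed the edgeR test, with 7 at an unadjusted p of 0.05. Of the L1 and NCAM family and its partners, 7 of 12 were tested. The most abundant was the growth factor receptor Fgfr1 (108.8 CPM in melanoma-like cells of both libraries), a binding partner of neural adhesion molecules, read at 56.7, 42.5 and 78.7 CPM in Empty vector and 141, 114 and 143 CPM in Bmal1 WT (log2 fold change 1.03, SE 0.25). The semaphorin receptor Nrp1 and the spectrin adaptor Ank3 had log2 fold changes of -0.999 (SE 0.55) and -0.16 (SE 0.24). Ncam2, Cntn1, Nfasc and St8sia2, the last an enzyme that adds polysialic acid to Ncam1, had 0 UMIs. The receptor phosphatase Ptprz1 had the largest fitted change of the listed genes at that unadjusted p, -2.17 (SE 0.50), and was read at 91.0, 56.7 and 38.9 CPM against 11.3, 22.4 and 5.99 CPM. Ptprz1 and the genes with 0 or few UMIs were singled out after their values were seen.

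Among the other glial and neural crest genes, 17 of 20 were tested and 12 of the 17 had negative log2 fold changes, with a median of -0.33. The small heat shock protein Cryab (log2 fold change 0.27, SE 0.24), the transcription factor Zeb2 (0.02, SE 0.29) and the myelin protein Pmp22 (-0.16, SE 0.41) were the most abundant. Of the cadherins and catenins, 5 of 10 were tested. The catenins Ctnnb1, Ctnna1 and Ctnnd1 stood at 213.1, 212.8 and 127 CPM with log2 fold changes of 0.01, 0.07 and -0.24. Cdh1, the epithelial cadherin, had 6 UMIs, whereas Cdh2 had 2685 and Cdh6 had 1834.

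All 7 S100 relatives were tested and none had an unadjusted p of 0.05 or below. S100a6, S100a10 and S100a4 stood at 5239, 1264 and 1069.9 CPM in melanoma-like cells, with log2 fold changes of 0.05 (SE 0.31), 0.02 (SE 0.23) and -0.10 (SE 0.44). They were also read in the other cells outside the Serpinb2- and Cavin2-led cluster, at 1936, 392 and 327 CPM. Of the fatty acid carriers, Fabp5 had 5883 UMIs and a log2 fold change of -1.08 (SE 0.55), while Fabp3 and Fabp4 had 6 and 1 UMIs. The lipid-sensing nuclear receptors Ppard and Rxra had log2 fold changes of 0.17 (SE 0.26) and 0.19 (SE 0.54).

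Nefl stood without the other neurofilament subunits. Nefm had 1 UMI and Nefh and Ina had 0 UMIs in the 408 melanoma-like cells, against 2626 UMIs for Nefl. Dcx of migrating neurons had 0 UMIs, but the neuronal ubiquitin hydrolase Uchl1 had 5500, the tubulin Tubb3 had 2535 and the microtubule-binding Map2 had 1314, with log2 fold changes of -0.52 (SE 0.40), -0.72 (SE 0.32) and -0.64 (SE 0.40). Of the R-spondin axis, Rspo1, Rspo2, Rspo3 and Rspo4 had between 0 and 3 UMIs in melanoma-like cells and the related receptor Lgr5 had 7, whereas Lgr6 had 2118. The ligase Znrf3, which R-spondin receptors clear from the membrane, had 437 UMIs and a log2 fold change of -0.20 (SE 0.33), and Lgr4 and Axin2 had 225 and 169 UMIs. Metrnl, the paralogue of Metrn, had 825 UMIs and a log2 fold change of 0.11 (SE 0.43), and Kit, a reported receptor for Metrnl, had 4.

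Barcodes with under 1% of UMIs from the 13 mitochondrial genes were compared with the other barcodes, with CPM taken over UMIs of nuclear genes. Within the melanoma-like clusters, with both libraries summed, all 9 genes were lower in the 43 mitochondria-poor barcodes than in the other 365, with log2 ratios from -3.03 for Chl1 to -0.83 for Metrn. In Bmal1 WT alone (28 and 277 barcodes) all 9 were lower. In Empty vector alone (15 and 88 barcodes) Nefl was at 0.22 (interval -0.51 to 0.95), with its 16 UMIs in 6.67% of the mitochondria-poor barcodes, and Metrn at -0.066 (-0.34 to 0.21). The median of the 9 was -1.86, against -0.37 over 9922 genes with quartiles of -0.98 and 0.12. The mitochondria-poor barcodes were shallower (median 18827 against 44017 UMIs), 31 of the 43 belonged to the Col11a1- and Sema3d-led cluster, and the nuclear RNA Malat1 was higher in them (log2 ratio 0.67). The part of depth and of cluster in these ratios was not tested.

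**Figure D4:**
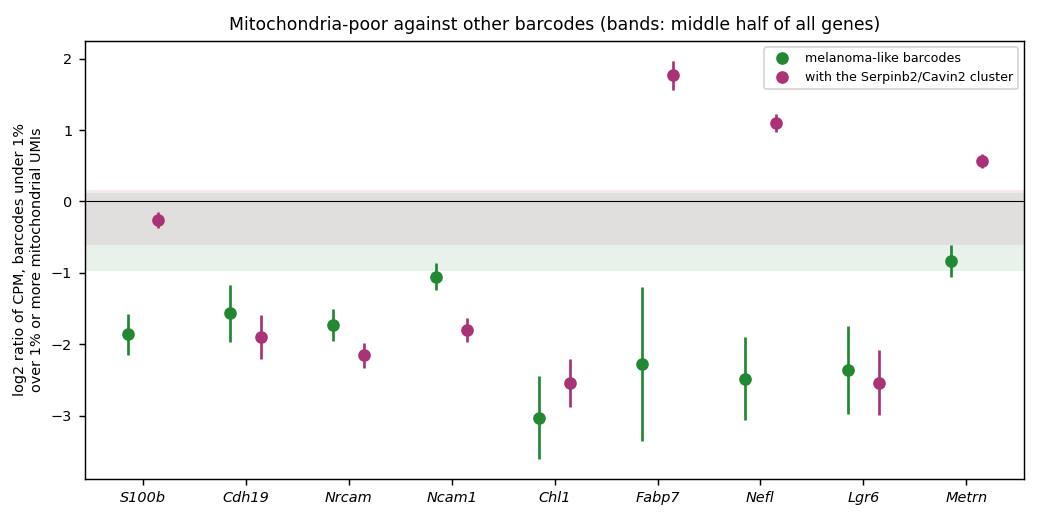
log2 ratio of CPM in barcodes with under 1% over barcodes with 1% or more mitochondrial UMIs (y axis) for the 9 genes (x axis), in melanoma-like barcodes (green) and with the Serpinb2- and Cavin2-led cluster added (purple); bars are 95% counting intervals and shaded bands are the middle 50% of all genes. All 9 green points lie below 0, and Fabp7, Nefl and Metrn lie above 0 in purple.

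Ncam1 was read at 216 CPM in mitochondria-poor and 449.8 CPM in other melanoma-like barcodes, a log2 ratio of -1.06 (interval -1.24 to -0.87). By library the ratio was -0.43 for Ncam1 in Empty vector and -1.61 in Bmal1 WT, and -2.39 and -1.25 for Cdh19, so their order turned between the libraries. Nrcam was read at 149 and 492 CPM (-1.73), Cdh19 at 47.4 and 140.1 CPM (-1.56) and Chl1 at 22.3 and 182 CPM (-3.03). S100b was read at 95.7 and 348 CPM (-1.86) and Lgr6 at 19.5 and 100.3 CPM (-2.36). Fabp7 had only 7 UMIs in the 43 barcodes, at 6.50 against 31.5 CPM (-2.28), and Nefl had 24, at 22.3 against 124.5 CPM (-2.48). Metrn was read at 153 and 273 CPM, and its ratio in Bmal1 WT alone was -1.74. Only h5 had at least 5 barcodes of both kinds. In its 5 mitochondria-poor barcodes Cdh19 was near level, at 97.8 against 101 CPM (log2 ratio -0.049). The other genes were lower there, with 1 UMI each for Chl1 and Lgr6 and 0 UMIs for Fabp7 and Nefl.

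Most mitochondria-poor barcodes lay outside the melanoma-like clusters. Of all 580, 43.3% were in the Serpinb2- and Cavin2-led cluster, 15.3% in the endothelial-like cluster and 7.41% in the melanoma-like clusters, and 65.3% had a UMI of at least 1 of the 9 genes. The Serpinb2- and Cavin2-led cluster held 94 Empty vector and 245 Bmal1 WT barcodes with a median of 2525 UMIs, and a Y-linked UMI was found in 47.2% of them. In it, S100b stood at 716 and 399 CPM and Metrn at 1238 and 383 CPM in Empty vector and Bmal1 WT. Fabp7 stood at 471 and 65.1 CPM and Nefl at 121 and 364 CPM. In both libraries all of these levels were above those in melanoma-like cells. A single barcode held 374 of the cluster's 731 Bmal1 WT Nefl UMIs. Chl1, at 87.6 and 43.8 CPM, Lgr6, at 6.04 and 21.4 CPM, and Ncam1, at 103 and 64.7 CPM, were lower there than in melanoma-like cells.

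When this cluster was counted with the melanoma-like cells (an alternative added once the data had been seen), the 294 mitochondria-poor barcodes had more Fabp7 (log2 ratio 1.77), Nefl (1.10) and Metrn (0.56) than the other 453. S100b was near level (-0.26), and Cdh19, Nrcam, Ncam1, Chl1 and Lgr6 stayed lower, from -2.54 to -1.80. With melanoma-like barcodes chosen by a gate on the markers in place of clusters, Fabp7 (2.28), Nefl (2.04) and Metrn (0.96) were also higher, in 86 mitochondria-poor barcodes against 327 others. Of the 9 genes, 3 lay above 0 with no cell filter, 2 at resolution 2, 2 with the 9 genes kept among the variable genes and 1 under the stricter filter, and in these settings 203 to 302 mitochondria-poor barcodes were counted as melanoma-like. The sign for Fabp7, Nefl and Metrn thus turned with the barcodes counted as melanoma-like. With barcodes chosen by a UMI of at least 2 of the Y-linked genes, also chosen after seeing the data, Nefl (1.35), Fabp7 (0.53) and Metrn (0.30) were again higher and the other 6 lower in the 90 mitochondria-poor barcodes.

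The genes with the most similar patterns were sought over 13 sums of a cell class and a library, by Pearson's r of log2(CPM + 1) among 9935 genes with at least 100 UMIs in melanoma-like cells. These r values are descriptions, since the sums share libraries and all the genes are high in the same class. Cdh19 and Nrcam were both closest to Ntm, a neural adhesion protein (r = 0.990 and 0.986), Lgr6 to March4 (0.990) and Tfap2b (0.990), and S100b to Tspan7 (0.988) and Tead4 (0.985). The second genes of Cdh19 and Nrcam were Mmp15 (0.986) and Eva1c (0.984). Ncam1 was closest to Ptprn (0.987) and B4gat1 (0.986), and Chl1 to Pmepa1 (0.964) and Pkp2 (0.955). Nefl was closest to Tbx20 (0.988) and AC166344.1 (0.986), Fabp7 to Rnf183 (0.974) and Dohh (0.965), and Metrn to the housekeeping genes Bzw1 (0.982) and Cct7 (0.978). Among the 9, Cdh19 and Nrcam were the closest partners (0.986), the closest member to Lgr6 was Cdh19 (0.985), to S100b Lgr6 (0.972) and to Fabp7 Nefl (0.938).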

How the data were processed

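The authors deposited raw UMI counts per gene and cell barcode from 10x Genomics 3′ v3.1 libraries, made with Cell Ranger 6.1.2 per the file headers and with mm10 per the submitters' processing notes. The sources used here do not give the annotation, the use of strand or doublet removal, and the counts were not normalized. Of 31053 gene identifiers, 30934 were found in GENCODE M21. The genes, gene lists and markers used here were chosen with earlier results of these data known.

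Barcodes with at least 200 genes and at most 20% mitochondrial UMIs were kept. A barcode entered a replicate when exactly 1 hashtag exceeded a minimum set per hashtag from its counts (17 for h5 to 159 for h3), and 17 of 408 melanoma-like cells carried several hashtags and entered none. Doublets were kept and no caller was run. Cells of the 2 libraries were partitioned jointly in scanpy 1.11.5 (2000 variable genes without the 9 genes, 30 components, 15 neighbours, Leiden resolution 1, which gave 26 clusters), with no batch correction. Clusters were named for the class with the largest number of markers over 2-fold raised (at least 3 markers, at least 20 UMIs each). The Col11a1- and Sema3d-led cluster had 6 and the Klk6- and Ptprn-led cluster 5 of the 12 melanoma markers raised. A cluster stayed unnamed when another class led it. It also stayed unnamed when it was shallow (under 0.333 times the library median) and no own marker was among its leading genes.

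UMIs were summed per replicate over melanoma-like cells, scaled by total UMIs, and genes with at least 100 UMIs were tested two-sided in edgeR 4.0.16 (R 4.3.3) with the quasi-likelihood test. No covariate was fitted. In data simulated for this comparison over 8844 genes, 11 of 100 genes changed by 1 on the log2 scale and 83 of 100 changed by 2 were recovered, with 4 false calls. The common dispersion was 0.081, and recovery was not computed for the 9 genes. Their fitted SEs ran from 0.21 for Ncam1 to 0.98 for Nefl. The genes named are the 9, the 2 genes most like each, the 3 of each list with the most UMIs, and Sox10 and Erbb3. DESeq2 1.42.0, other filters, scalings, clusterings and gates were the alternatives. Some marker genes are not reported here.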

Additional observations from a re-analysis of the deposited data

Results flagged for a closer look

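Barcodes that the cell filter left out, 169 of Empty vector and 399 of Bmal1 WT, entered no comparison. Chl1, Nefl, S100b and Lgr6 stood above their Empty vector level in those of Bmal1 WT, without overlap of the counting intervals. Cdh19, Nrcam, Ncam1 and Metrn were lower in Bmal1 WT there, but with overlapping counting intervals. Fabp7 had 8 UMIs in Bmal1 WT and 0 in Empty vector, and its intervals overlapped too. The share of all genes with a gap between the intervals was not computed. The libraries also differ in the kept cells, where melanoma-like cells held 17.2% of gene UMIs in Empty vector and 44.8% in Bmal1 WT. Chl1 was read at 109 CPM (89.6 to 130) in Bmal1 WT against 12.3 CPM (3.35 to 31.5) in Empty vector, and Nefl at 90.5 CPM (73.2 to 111) against 12.3 CPM (3.35 to 31.5). S100b was read at 75.3 CPM (59.6 to 93.8) against 30.8 CPM (14.7 to 56.6), and Lgr6 at 42.9 CPM (31.3 to 57.4) against 6.15 CPM (0.745 to 22.2). The Empty vector values of Chl1, Nefl, S100b and Lgr6 rest on 2 to 10 UMIs. These barcodes have no replicate sums here, and the difference between the libraries was not tested.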

How the results depend on the processing

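The alternatives gave 320 values, of which 260 kept their direction and side of the threshold, or stayed within the spread. No alternative called any of the 9 genes; the lowest adjusted p was 0.38, for Ncam1 when genes with at least 1 UMI were tested. Over all genes, 0 calls became 23 with genes of at least 1 UMI, 4 with DESeq2, and 0 to 1 without single replicates, the 1 arising without Bmal1 WT h5. Cdh19 (log2 fold change 0.0042) became -0.23 with hashtags called by centred log count, -0.18 with the stricter cell filter, -0.028 with no cell filter, -0.15 without mitochondria-poor barcodes, -0.069 at resolution 2, -0.071 with the 9 genes among the variable genes, -0.038 with the Serpinb2- and Cavin2-led cluster, -0.11 in the Klk6- and Ptprn-led cluster, -0.25 with the Y-linked gate, and -0.47 to 0.28 without single replicates. Nrcam (-0.29) became 0.28 without mitochondria-poor barcodes, 0.032 with the Y-linked gate, and -0.54 to 0.14 without single replicates. Chl1 (-0.89) became 0.038 with centred log count and 0.15 in the Col11a1- and Sema3d-led cluster. Fabp7 (-0.80) became 0.35 in that cluster, and -2.52 to 0.74 without single replicates. The log2 ratio to the highest other class, under the stricter filter, at resolution 2, with the 9 genes among the variable genes and without mitochondria-poor barcodes in that order, became 1.11, 3.86, 3.68 and 3.49 for Fabp7, 1.36, 7.65, 7.36 and 7.13 for Nefl, and 0.77, 2.51, 2.41 and 2.38 for Metrn. The median ratio of mitochondria-poor to other barcodes (-1.86) became -1.59 with a marker gate, -2.21 at a limit of 0.5%, -0.72 at 2%, -1.70 in Empty vector alone and -2.09 with the Y-linked gate. Apart from the wider gene filter, the cause was not tested. The Y-linked gate and the fits by cluster were chosen after seeing the data, and h7 had 0 cells in the gate. In fits that leave 1 replicate out, none of the groups fell below 2 replicates. No paired analysis was possible because the groups share no hashtag or replicate number. Depth limits h7 most, with 70523 UMIs against 5391108 in h5.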
